A study of Mus musculus with 12 samples.

Results

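The genes described here are 9 negative-feedback genes of mitogen-activated protein kinase (MAPK) signalling in mouse regulatory T cells (Treg): the dual-specificity phosphatase genes Dusp1, Dusp2, Dusp4, Dusp5, Dusp6 and Dusp10, the Sprouty genes Spry1 and Spry2, and Spred1. They were taken by symbol from a table of 36222 genes, in which each symbol had 1 Ensembl identifier. RNA-seq was performed on 12 libraries in 4 groups of 3. The cKO mice carried a homozygous floxed Ikzf1 allele, which encodes Ikaros, and a Foxp3-IRES-YFP-Cre allele, so that deletion depended on Foxp3-driven Cre and was restricted to Treg. The WT mice carried the same Foxp3-YFP-Cre allele with intact Ikzf1, so both genotypes expressed Cre and YFP. Mice were 6 to 8 weeks old, on the B6 background, and each library came from YFP+ cells sorted from the CD4+ T cells of individual mice. The labels name the spleen as the source, and the study's general purification methods name spleen and lymph nodes together. Cells of each genotype were either lysed as sorted (ex vivo) or cultured for 4 h on plate-bound antibodies to CD3 and CD28 at 1 µg/ml each (stimulated). An unstimulated culture of the same duration was not analysed here, so culture and receptor stimulation cannot be told apart in any comparison of stimulated with ex vivo cells.

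MAPKs are switched on by phosphorylation of a threonine and a tyrosine in their activation loop, and dual-specificity phosphatases of the MAPK phosphatase class remove both phosphates. Several of these phosphatase genes are themselves induced by MAPK activity and so close a negative-feedback loop. Sprouty and Spred proteins act upstream, at the membrane, where they restrain the activation of Ras and Raf and hence of ERK. In T cells, engagement of the antigen receptor activates ERK, JNK and p38, and phosphatases such as the Dusp2 product were first described in activated lymphocytes.

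Upstream sequences are shown for 3 members that were lower after stimulation in both genotypes and whose sequence held a motif searched for. RefSeq windows (GRCm38.p6) matched 8 of the 9 members, Dusp4 being the one without an entry, and the 250 bases before the start were searched on both strands for 6 motifs. These were the cyclic AMP response element TGACGTCA, the CArG box bound by serum response factor, the E-box CACGTG, the AP-1 site TGANTCA, an extended ETS site CCGGAA and an extended Ikaros site TGGGAA. The paper gives the shorter GGGAA as the Ikaros core, and shorter ETS or Ikaros cores were not among the motifs searched. Of the 8 windows, 3 held a motif, and these are printed 5′ to 3′ on the gene's own strand, with the motif letters in capitals. The windows are chr17:26508473-26508722 (minus strand) for Dusp1, chr2:127335909-127336158 (plus strand) for Dusp2 and chr19:53528895-53529144 (plus strand) for Dusp5.
Dusp1: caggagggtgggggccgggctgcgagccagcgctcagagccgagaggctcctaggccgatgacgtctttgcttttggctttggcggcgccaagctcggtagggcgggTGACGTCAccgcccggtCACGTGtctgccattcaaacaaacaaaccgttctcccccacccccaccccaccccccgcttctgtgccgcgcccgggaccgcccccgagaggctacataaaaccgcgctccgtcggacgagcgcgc
Dusp2: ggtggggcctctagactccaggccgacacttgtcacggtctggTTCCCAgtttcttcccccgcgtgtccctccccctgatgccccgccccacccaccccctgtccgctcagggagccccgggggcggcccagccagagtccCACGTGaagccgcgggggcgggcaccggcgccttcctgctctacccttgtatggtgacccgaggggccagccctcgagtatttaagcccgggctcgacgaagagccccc
Dusp5: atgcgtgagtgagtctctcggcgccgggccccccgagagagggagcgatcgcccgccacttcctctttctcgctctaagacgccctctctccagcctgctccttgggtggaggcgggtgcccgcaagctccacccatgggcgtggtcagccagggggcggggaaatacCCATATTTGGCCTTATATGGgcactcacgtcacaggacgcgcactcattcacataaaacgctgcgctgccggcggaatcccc
In the Dusp1 window, the capitals mark the cyclic AMP response element at -143 to -136, where -1 is the last base before the start, and an E-box at -126 to -121. In the Dusp2 window they mark the extended Ikaros site at -207 to -202, which lies on the opposite strand and so reads TTCCCA here, and an E-box at -109 to -104. In the Dusp5 window they mark a pair of abutting CArG boxes, CCATATTTGG at -82 to -73 and CCTTATATGG at -72 to -63. Among all 32851 windows of the same length, the cyclic AMP response element occurred in 1.55%, the CArG box in 1.47%, the E-box in 6.02% and the extended Ikaros site in 21.6%. The AP-1 site (6.75% of windows) and the extended ETS site (12.03%) occurred in none of the 8, and the windows of Dusp6, Dusp10, Spry1, Spry2 and Spred1 held none of the 6 motifs as searched. The shorter GGGAA also lies in the windows of Dusp5, Spry2 and Spred1. Such matches describe letters in these windows only.

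Libraries held 8208659 to 20247649 reads assigned to genes. The single gene Gm10800 took a share of all TPM, the length-normalised transcript measure deposited, that differed between the states. It was 17.7 to 39.8% (WT) and 20.4 to 24.4% (cKO) ex vivo, and 32.6 to 44.4% (WT) and 42.9 to 55.9% (cKO) after stimulation, and its part in the comparisons was tested only through the scaling alternatives. Because such a gene displaces all others in TPM, values are given as scaled TPM, the deposited TPM divided by a trimmed-mean factor (0.732 to 1.21) computed over the 13318 genes with a group mean of at least 5 TPM. Ikzf1, the deleted gene, averaged 110 ± 5.55 scaled TPM (SD, n = 3) in the WT and 37.9 ± 4.57 in the cKO libraries ex vivo, and after stimulation 68.9 ± 2.24 and 27.8 ± 3.91, over all of its exons. WT ex vivo 3 stood apart as a library from a female, with Xist at 191 scaled TPM against 0.562 to 1.86 in the other 11. All 7 Treg markers were present in every group, with a summed level of 2176 to 2507 ex vivo and 1247 to 1685 after stimulation. The summed markers of CD8 T cells, B cells, myeloid cells, NK cells and erythroid cells or platelets each stayed at or under 21.3 in every library, and none of these markers was at 0 in a whole group. The 4 B cell markers summed to 8.62 to 13.5 in WT and 15.3 to 18.7 in cKO ex vivo libraries, and to 9.27 to 11.3 in WT and 14.01 to 21.3 in cKO stimulated libraries. They thus moved with genotype in both states. The 4 erythroid and platelet markers summed to 4.60 to 4.96 in WT and 3.27 to 7.37 in cKO ex vivo libraries, and to 5.88 to 7.48 in WT and 7.59 to 11.5 in cKO stimulated libraries, so they were higher after stimulation in both genotypes and higher in cKO than in WT after stimulation, without overlap. In cKO the 5 myeloid markers (8.05 to 11.99 ex vivo, 12.6 to 19.6 stimulated) and the 2 NK cell markers (2.52 to 4.93 and 5.24 to 7.37) were also higher after stimulation. The part of these cell types in the comparisons was not tested.

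The 6 Dusp genes were among the more abundant transcripts of ex vivo Treg. In WT ex vivo libraries, Dusp10 averaged 542 ± 153 scaled TPM (SD, n = 3), rank 99 of 36222 genes, and Dusp1 504 ± 126, rank 105. Dusp5 followed at 371 ± 81.1, Dusp4 at 182 ± 39.8, Dusp2 at 101 ± 6.48 and Dusp6 at 69.5 ± 14.7. TPM are normalised for length, so levels can be compared between genes. The ranges of Dusp10 and Dusp1 overlapped, as did those of Dusp1 and Dusp5, while every further step down the order was separated in all 3 libraries. Spry1 averaged 43.1 ± 5.43, and Spred1 (5.34 ± 0.231) and Spry2 (3.55 ± 0.108) lay near the lower limit of what was tested. After stimulation this order was different: Dusp4 led in both genotypes, at 124 ± 9.19 in WT and 155 ± 19.1 in cKO, and Dusp1 ranked 4 of 9 in both. The Dusp4 range overlapped that of Dusp10 (mean 114) in WT and that of Dusp5 (mean 131) in cKO. The 9 genes together summed to 1509 to 2030 (WT) and 1422 to 1829 (cKO) scaled TPM ex vivo, and after stimulation to 531 to 599 (WT) and 469 to 638 (cKO). In bulk RNA such a lower level can come from less RNA per cell or from fewer expressing cells, which cannot be told apart. The 2 genotypes overlapped in this sum in both states.

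**Figure D1:**
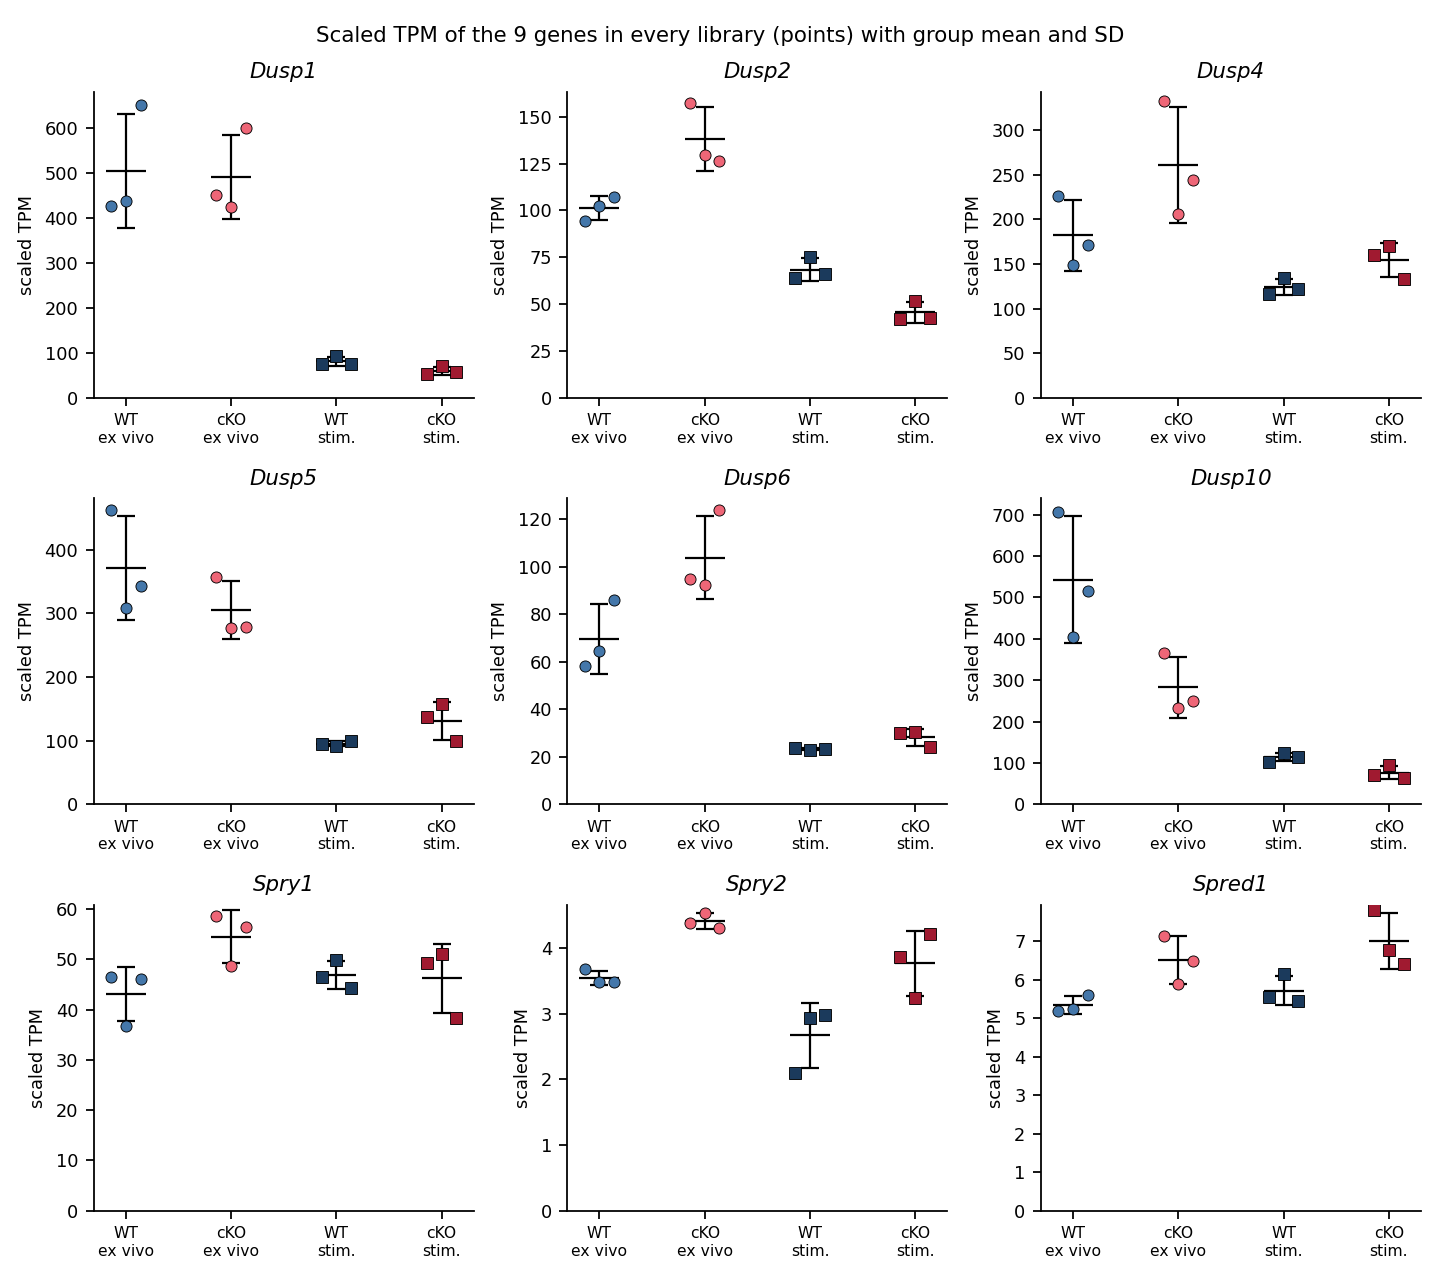
Scaled TPM (vertical axes, starting at 0, a different scale for each gene) of the 9 genes in the 12 libraries. Points are libraries, horizontal bars are group means and error bars are SDs (n = 3). For each of the 6 Dusp genes all 6 stimulated libraries lie below the ex vivo libraries of their own genotype, whereas Spry1 and Spred1 show no such step.

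The first question was how the feedback genes differed between ex vivo and stimulated Treg. In WT cells, Dusp1, Dusp2, Dusp5, Dusp6 and Dusp10 were lower after stimulation, and in cKO cells these 5 and Dusp4 were lower. No member was higher in either genotype. Of the 8 members that could be tested, 5 were thus called in WT, where 32.0% of all tested genes were called (19.3% lower and 12.7% higher). In cKO 6 of 8 were called, where 43.8% of all tested genes were called (26.5% lower and 17.3% higher). The median log2 difference of the members was -1.04 in WT and -1.40 in cKO, beside 0.00 and -0.01 over all tested genes. The ranges of the 2 groups did not overlap for the 6 Dusp genes in either genotype, a separation that 47.5% of all tested genes showed in WT and 53.5% in cKO. On TPM as deposited, Dusp4 overlapped in WT, whereas Spred1 in WT and Spry1 in cKO did not. The test was limma on log2(scaled TPM + 1) with all 12 libraries in 1 fit and Benjamini-Hochberg adjustment over 13318 genes, and differences are given on that log2 scale with their standard errors. All 6 Dusp genes kept a negative difference in both genotypes in each of the 20 alternative fits.

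Among the nuclear, inducible phosphatases, Dusp1 (ENSMUSG00000024190, chr17:26642535-26645464 in NCBIM37, the assembly of mm9), which acts on p38, JNK and ERK, showed the widest difference. Its scaled TPM was 426, 437 and 650 in the WT ex vivo libraries 1 to 3 and 74.7, 92.2 and 75.7 in the WT stimulated libraries. In cKO it was 450, 425 and 598 ex vivo and 54.1, 69.8 and 56.5 after stimulation. The lowest ex vivo library of each genotype therefore stood far above the highest stimulated one. The mean was 6.23-fold lower after stimulation in WT (log2 difference -2.60, SE 0.19, adjusted p = 4.85e-06) and 8.16-fold lower in cKO (-3.00, SE 0.19, adjusted p = 1.86e-06). Dusp1 was the 22nd most reduced of the 13318 genes in WT and the 9th in cKO.

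Dusp5 (ENSMUSG00000034765, chr19:53603599-53616921), a nuclear phosphatase specific for ERK, came next among these genes in WT. It measured 462, 308 and 343 in WT ex vivo libraries and 95.4, 91.7 and 98.8 in WT stimulated libraries, with no overlap. In cKO the values were 358, 278 and 279 ex vivo and 137, 158 and 99.0 after stimulation, again apart. The fall was 3.89-fold in WT (-1.93, SE 0.19, adjusted p = 3.36e-05) and 2.32-fold in cKO (-1.23, SE 0.19, adjusted p = 0.000501).

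Dusp2 (ENSMUSG00000027368, chr2:127161895-127164112), a nuclear phosphatase named for its presence in activated haematopoietic cells, had the smallest WT difference that passed the test. WT libraries held 94.5, 102 and 107 scaled TPM ex vivo and 63.9, 75.3 and 66.2 after stimulation. The cKO libraries held 157, 130 and 126 ex vivo and 42.3, 51.9 and 42.6 after stimulation, so that the cKO groups lay outside the WT groups at both ends. The fall was 1.48-fold in WT (-0.56, SE 0.12, adjusted p = 0.00370) and 3.02-fold in cKO (-1.58, SE 0.12, adjusted p = 4.03e-06). The WT call was lost on TPM as deposited (-0.36, adjusted p = 0.216) and with a filter at 1 TPM or no filter (adjusted p = 0.0757 and 0.0746).

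Dusp4 (ENSMUSG00000031530, chr8:35870351-35882948), another nuclear inducible phosphatase, had the smallest step of the 6 in cKO. Scaled TPM was 226, 149 and 172 in WT ex vivo libraries and 117, 135 and 122 in WT stimulated ones. In cKO it was 332, 206 and 244 ex vivo and 160, 171 and 134 after stimulation. The groups did not overlap in scaled TPM in either genotype, although those of WT did on TPM as deposited, and the difference passed the test only in cKO (-0.73, SE 0.19, adjusted p = 0.0109). In WT it was -0.53 (SE 0.19, adjusted p = 0.0537), which passed in 4 of the 20 alternative fits, and the difference between the genotypes in this response was itself not called (-0.20, SE 0.27, adjusted p = 0.775). Without cKO stimulated 3, the shallowest library, the cKO difference was -0.58 with an adjusted p of 0.0568.

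Dusp6 (ENSMUSG00000019960, chr10:98725865-98730122) encodes the cytoplasmic phosphatase specific for ERK. It measured 58.0, 64.5 and 86.0 in WT ex vivo libraries against 23.5, 22.9 and 23.4 in WT stimulated libraries, the latter with an SD of only 0.349. The cKO libraries held 95.01, 92.5 and 124 ex vivo and 30.1, 30.6 and 24.2 after stimulation. The groups were far apart in both genotypes, by 2.99-fold in WT (-1.52, SE 0.16, adjusted p = 4.57e-05) and 3.67-fold in cKO (-1.83, SE 0.16, adjusted p = 9.77e-06).

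Dusp10 (ENSMUSG00000039384, chr1:185837181-185899515), whose product prefers JNK and p38 to ERK, had the widest difference in WT after Dusp1. Its scaled TPM was 707, 404 and 516 in WT ex vivo libraries and 103, 123 and 115 in WT stimulated libraries. In cKO it was 367, 232 and 249 ex vivo and 70.1, 95.9 and 64.4 after stimulation. The fall was 4.77-fold in WT (-2.21, SE 0.23, adjusted p = 4.96e-05) and 3.68-fold in cKO (-1.86, SE 0.23, adjusted p = 0.000121), with all ex vivo libraries above all stimulated ones.

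Of the Sprouty and Spred members, Spry1 and Spred1 did not pass the test in either genotype, and Spry2 was too low to be tested. Spry1 (ENSMUSG00000037211, chr3:37538869-37543520), a membrane-associated inhibitor of the Ras-ERK route, measured 46.4, 36.8 and 46.0 in WT ex vivo and 46.5, 49.9 and 44.3 in WT stimulated libraries. In cKO it measured 58.6, 48.6 and 56.3 ex vivo and 49.2, 51.1 and 38.3 after stimulation. The ranges overlapped in both genotypes. The difference was 0.13 in WT (95% interval -0.16 to 0.41, adjusted p = 0.488) and -0.24 in cKO (-0.53 to 0.04, adjusted p = 0.150), which bounds a fall in WT well short of those of Dusp1, Dusp5, Dusp6 and Dusp10. Spred1 (ENSMUSG00000027351, chr2:116947110-117008015), whose product brings the Ras GTPase-activating protein neurofibromin to the membrane, stayed between 5.18 and 7.82 in all 12 libraries. Its difference was 0.08 in WT (95% interval -0.15 to 0.32, adjusted p = 0.591) and 0.09 in cKO (-0.14 to 0.33, adjusted p = 0.500), and it became negative with a filter at 1 TPM or none. Spry2 (ENSMUSG00000022114, chr14:106291166-106296036) measured 3.68, 3.49 and 3.49 in WT ex vivo and 2.10, 2.94 and 2.98 in WT stimulated libraries, and 4.39, 4.54 and 4.31 in cKO ex vivo and 3.86, 3.24 and 4.21 in cKO stimulated libraries, on 34 to 125 reads a library. The stimulated libraries thus lay below the ex vivo ones in both genotypes, without overlap, although on TPM as deposited those of WT overlapped. Its highest group mean lay just under 5 TPM, so it was not part of the test. With a filter at 1 TPM, which moves the median of the genes above 5 TPM to -0.22 in WT and -0.52 in cKO, its difference was -0.51 in WT (adjusted p = 0.101) and -0.63 in cKO (adjusted p = 0.0197).

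**Figure D2:**
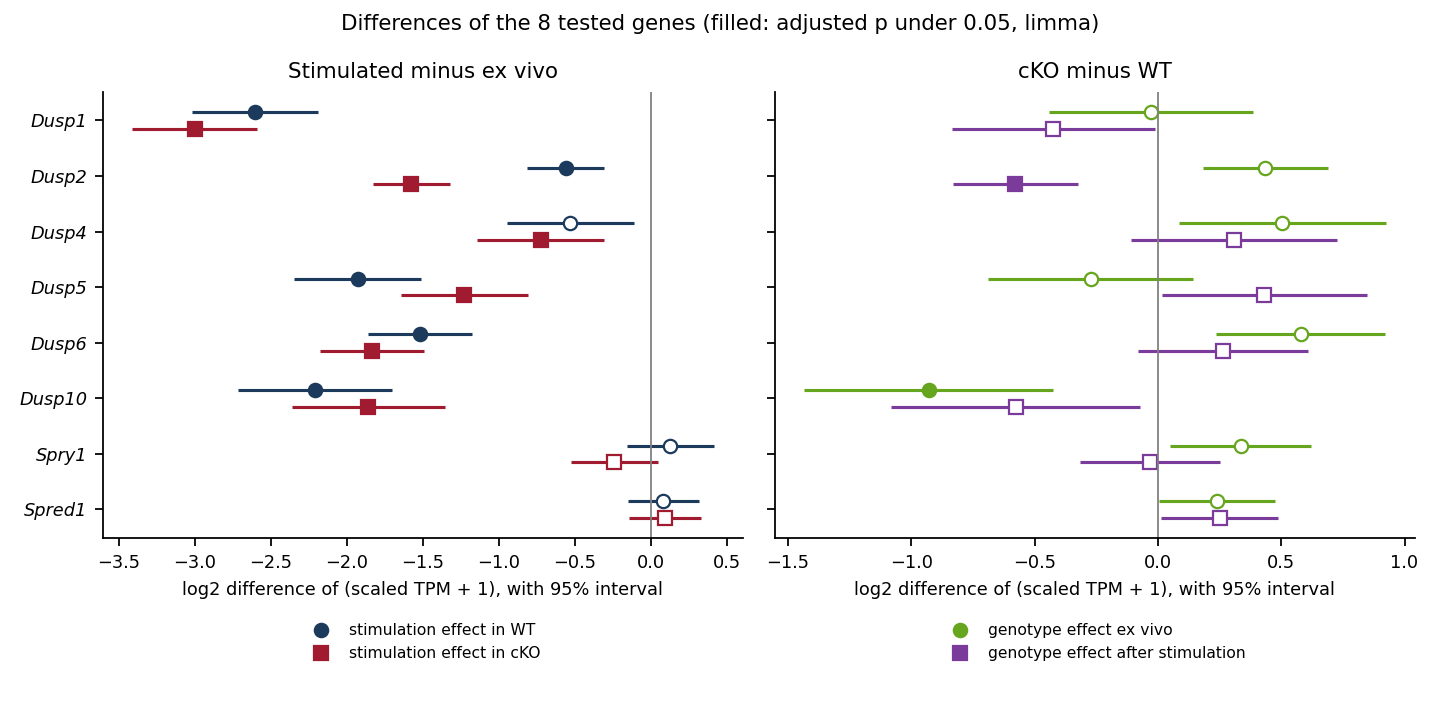
Log2 differences of the 8 tested genes with 95% intervals from limma: stimulated minus ex vivo on the left for WT and cKO, cKO minus WT on the right for ex vivo and stimulated cells. Filled symbols passed an adjusted p of 0.05; on the left all but Dusp4 in WT, Spry1 and Spred1 are filled, and on the right only Dusp10 ex vivo and Dusp2 after stimulation.

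The second question was whether loss of Ikaros changed the feedback genes within each state. Ex vivo, Dusp10 was lower in cKO than in WT and no other member passed the test. This is 1 of 8 members tested, beside 5.29% of all tested genes. The Dusp10 mean was 1.92-fold lower in cKO (-0.93, SE 0.23, adjusted p = 0.0416), and the highest cKO library (367) lay below the lowest WT library (404). This call sat at the edge of the threshold. It was lost in 8 of the 12 fits that each left out 1 library, namely WT ex vivo 1 or 3, cKO ex vivo 2 or 3, WT stimulated 1, 2 or 3 and cKO stimulated 1, with adjusted p up to 0.141. On TPM as deposited the difference was -0.69 with an adjusted p of 0.321, and the groups overlapped.

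Other members were higher in cKO ex vivo libraries without passing the test. Dusp6 was 1.49-fold higher (0.58, SE 0.16, adjusted p = 0.0588), with every cKO library above every WT library. Without WT ex vivo 3, the library from a female, it was 0.74 with an adjusted p of 0.0237. Dusp2 was 1.36-fold higher (0.44, SE 0.12, adjusted p = 0.0551), also without overlap, and Dusp4 was 1.43-fold higher (0.51, SE 0.19, adjusted p = 0.182) with overlapping ranges. Spry1 was 1.27-fold higher (0.34, adjusted p = 0.194) and Spred1 1.22-fold (0.24, adjusted p = 0.270). Dusp1 averaged 504 in WT and 491 in cKO, a log2 difference of -0.03 (95% interval -0.44 to 0.39) whose sign changed between fits. Dusp5 was 0.27 lower in cKO on the log2 scale (95% interval -0.69 to 0.14), with overlap. In all, 5 of the 8 members did not overlap between the genotypes ex vivo, beside 21.5% of all tested genes, and on TPM as deposited 4 did not, beside 22.9%. The members' median difference was 0.29, against -0.01 over all tested genes.

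After stimulation, Dusp2 was lower in cKO than in WT and no other member passed the test, which is again 1 of 8 beside 6.93% of all tested genes. The Dusp2 means were 68.4 ± 6.01 in WT and 45.6 ± 5.43 in cKO (SD, n = 3), a 1.50-fold difference (-0.58, SE 0.12, adjusted p = 0.0133). The lowest WT library (63.9) lay above the highest cKO library (51.9). The call was lost without WT stimulated 2 (adjusted p = 0.0722), cKO stimulated 1 (0.0616) or cKO stimulated 3 (0.0528), with the difference at or below -0.50 in each. Dusp10 stayed lower in cKO, at 76.8 ± 16.8 against 114 ± 10.2, without passing the test (-0.58, SE 0.23, adjusted p = 0.161). Dusp1 was 60.2 ± 8.45 against 80.9 ± 9.80 (-0.42, adjusted p = 0.201), with the libraries of the 2 genotypes apart. Dusp5 was on the other side, at 131 ± 29.8 in cKO against 95.3 ± 3.54 in WT (0.43, SE 0.19, adjusted p = 0.196), and cKO stimulated 3 (99.0) was barely above the highest WT library (98.8). Dusp4, Dusp6 and Spred1 had differences of 0.31, 0.26 and 0.25 with adjusted p of 0.346, 0.329 and 0.189, and Spry1 of -0.03 (0.905). The differences of Dusp4, Dusp6, Spred1 and Spry1 changed sign in 1 to 3 of the 20 alternative fits. Ranges did not overlap for 6 of the 8 members, beside 30.8% of all tested genes, but on TPM as deposited for only 3 of the 8, beside 30.8% on that scale too.

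The third question was whether the response to stimulation itself differed between the genotypes, which is the interaction term of the same fit. Dusp2 was the only member called, 1 of 8 beside 1.10% of all tested genes. Its fall was deeper in cKO (-1.01, SE 0.16, adjusted p = 0.0168), since the cKO libraries started above WT ex vivo and ended below WT after stimulation. The negative sign held in all 20 alternative fits, between -1.54 and -0.92. The adjusted p ranged from 0.000922 to 0.488, and the call was lost without WT stimulated 2 (adjusted p = 0.0555), without cKO stimulated 1 (0.0544), and with a filter at 1 TPM or no filter (0.467 and 0.488). With those filters limma called 0 genes of the table for the interaction, while 2468 and 2504 had an unadjusted p under 0.05. Dusp5 had the widest interaction in the other direction (0.70, SE 0.27, 95% interval 0.11 to 1.29, adjusted p = 0.256), its fall being shallower in cKO. The values for Dusp1 (-0.40, adjusted p = 0.521), Spry1 (-0.37, 0.385), Dusp6 (-0.32, 0.540), Dusp10 (0.35, 0.650), Dusp4 (-0.20, 0.775) and Spred1 (0.01, 0.984) did not pass.

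**Figure D3:**
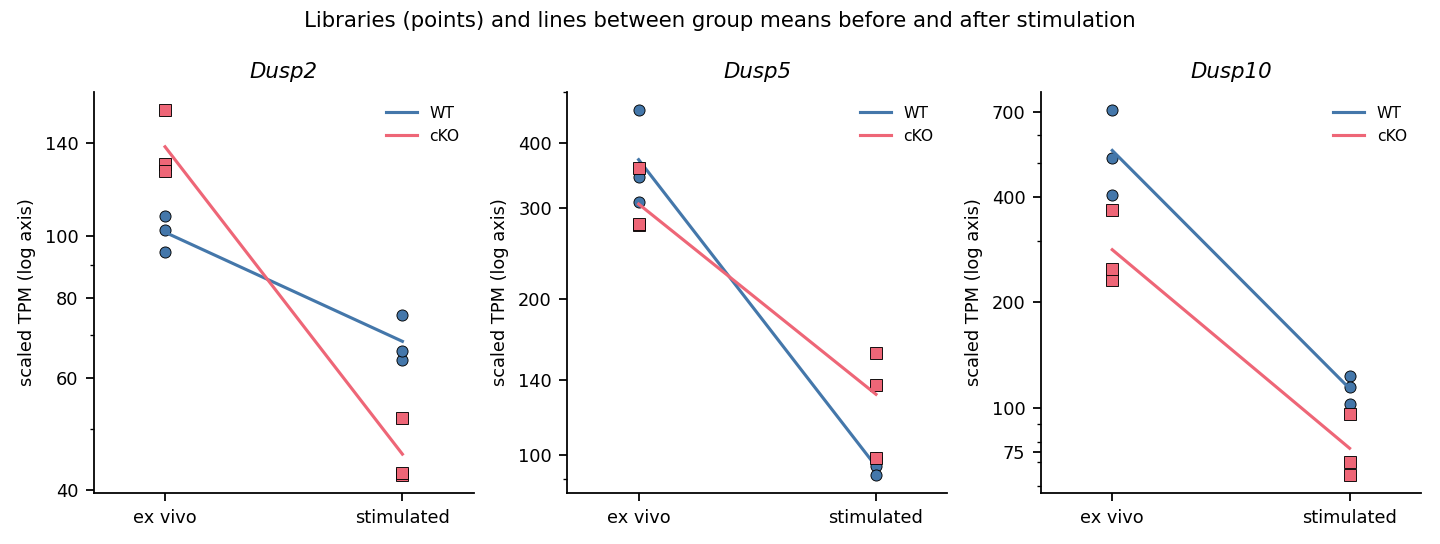
Scaled TPM (log axes) of Dusp2, Dusp5 and Dusp10 in ex vivo and stimulated libraries of WT (circles) and cKO (squares); lines join group means. The Dusp2 lines cross, from 101 to 68.4 in WT and from 138 to 45.6 in cKO, those of Dusp5 cross the other way without passing the test, and Dusp10 is lower in cKO at both ends.

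The remainder of the pathway was described from 7 lists, of which 51 of 66 genes could be tested. Among 12 genes whose transcription follows ERK activity, 5 were lower and 3 higher after stimulation in WT, and 6 were lower and 3 higher in cKO. Over all tested genes, 19.3% were lower and 12.7% higher in WT, and 26.5% and 17.3% in cKO. The lower genes included the AP-1 subunit genes Fos, Fosb, Jun and Junb, while the AP-1 subunit gene Fosl1 did not pass (0.31 in WT, adjusted p = 0.223, and -0.48 in cKO, adjusted p = 0.0551). Egr1, lower in cKO (-0.69), was called there in 11 of the 20 alternative fits. Jun averaged 559 scaled TPM in WT ex vivo and 30.4 in WT stimulated libraries (-4.11, SE 0.22, adjusted p = 8.31e-07), and Fosb had the widest fall in cKO (-3.86, SE 0.18, adjusted p = 4.16e-07), from 940 to 64.1. The zinc-finger genes Egr2 and Egr3 and the transcription factor gene Myc were the 3 that were higher, Egr3 by 1.70 in WT and 1.41 in cKO and Egr2 by 1.48 and 1.31 on the log2 scale. In cKO the Egr2 and Egr3 calls were lost with a filter at 1 TPM or none, where the lowest values were 0.76 and 0.86. Myc, higher by 0.61 in WT and 0.64 in cKO, was called in 17 of the 20 alternative fits in each, with lowest values of 0.35 and 0.084. Dusp1, Dusp5, Dusp6 and Dusp10 thus differed between the states in the same direction as Fos, Fosb, Jun, Junb and Ier2, and opposite to Egr2 and Egr3. The median over the 12 genes was -0.27 in WT and -0.59 in cKO.

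**Figure D4:**
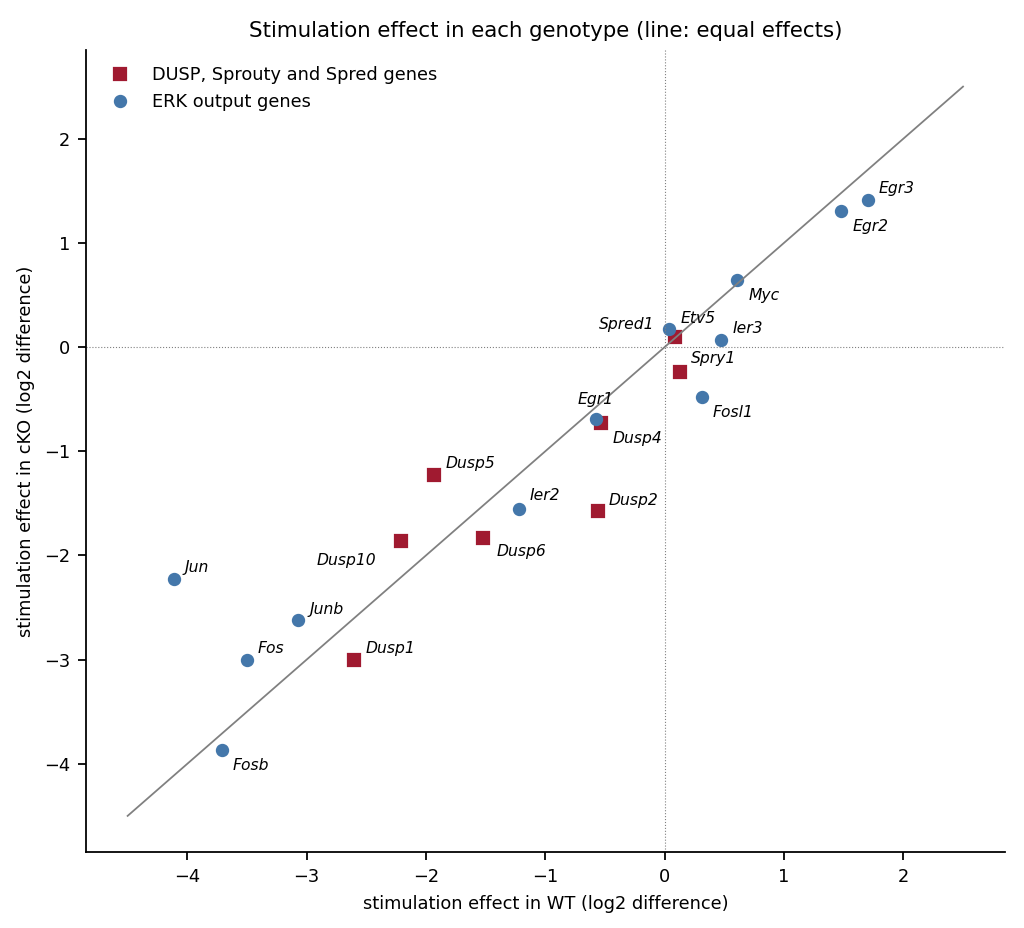
Log2 difference of stimulated from ex vivo cells in WT (horizontal) and cKO (vertical) for the 8 tested members (squares) and the 12 genes downstream of ERK (circles); the diagonal marks equal differences. Jun (-4.11 in WT, -2.23 in cKO) and Dusp2 (-0.56, -1.58) lie on opposite sides of the diagonal and are the labelled genes whose interaction was called.

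Of other phosphatase genes, Dusp14, an atypical dual-specificity phosphatase that dampens T cell receptor signalling, was higher in cKO than in WT ex vivo. It measured 18.9, 19.7 and 21.3 in WT ex vivo libraries and 61.4, 44.8 and 53.7 in cKO ex vivo libraries (1.36, SE 0.12, adjusted p = 0.000155). After stimulation it measured 9.79, 11.0 and 9.94 in WT and 12.1, 13.5 and 10.5 in cKO, with overlapping ranges. The difference between the genotypes there did not pass the test (0.21, adjusted p = 0.318). Its fall was deeper in cKO (interaction -1.15, SE 0.17, adjusted p = 0.0132), from -0.90 in WT to -2.05 in cKO. In its list, 1 of 3 tested genes was called ex vivo and 2 of 3 in each stimulation comparison, beside 5.29%, 32.0% (WT) and 43.8% (cKO) of all tested genes. Of the other MAPK phosphatase genes, Dusp7 alone passed, in WT after stimulation (-0.27, adjusted p = 0.00840), as 1 of 2 tested beside 32.0%, and its call was lost with a filter at 1 TPM, with no filter and on TPM as deposited (values from -0.52 to -0.087 over the 20 alternatives). Spred2 was the single further Sprouty or Spred gene tested and was lower after stimulation in cKO (-0.54, adjusted p = 0.00592).

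Upstream of ERK, 9 of 17 genes were called after stimulation in WT, 5 lower and 4 higher, and 6 of 17 in cKO, 5 lower and 1 higher, beside 32.0% and 43.8% of all tested genes. Of the 9, the adaptor gene Grb2 was called in 8 of the 20 alternative fits (-0.33, from -0.58 to -0.13). Rasgrp2, a calcium-regulated exchange factor for Ras-family GTPases, changed most in both (-1.53 in WT and -1.11 in cKO, adjusted p = 1.74e-05 and 0.000108). Between the genotypes, Ksr1, the scaffold of the Raf-MEK-ERK chain, was the only one called, ex vivo (0.41, adjusted p = 0.0182), and passed in 14 of the 20 alternative fits. Of 7 Ras GTPase-activating protein genes, 2 were higher and 3 lower after stimulation in each genotype, with Rasal3 the most reduced (-1.17 in WT and -1.05 in cKO). Of the higher ones, Rasa2 in WT (0.32) was called in 6 of the 20 alternative fits, and Nf1 in cKO (0.45) in 17, with a lowest value of -0.055. Ex vivo, Nf1, which encodes the neurofibromin that Spred1 recruits, was higher in cKO (0.53, adjusted p = 0.0144), a call made in 14 of the 20 alternative fits. Rasa2 was lower ex vivo (-0.49, adjusted p = 0.0270), a call made in 11 of the 20, in which the difference ran from -0.60 to -0.27. After stimulation Rasa3 was lower in cKO (-0.74, adjusted p = 0.00593), as in 18 of the 20 alternatives. Dab2ip was higher (0.64, adjusted p = 0.0316), but in the 20 alternatives it was called 11 times, with values from 0.37 to 0.77. The 5 TPM filter admitted Dab2ip only through cKO, since its mean scaled TPM was 3.05 ex vivo and 3.68 stimulated in WT, against 6.31 in stimulated cKO. In the JNK and p38 arms, the p38 activator gene Map2k3 rose with stimulation in WT (1.18, adjusted p = 1.12e-05) and was already higher in cKO ex vivo (0.92, adjusted p = 0.000482), with an interaction of -0.98 (adjusted p = 0.0122). In WT 1 of the 9 genes of this list was higher and 3 were lower, and in cKO 4 were lower, Mapk8, which encodes a JNK, by 0.83 on the log2 scale. Mapk14, a p38 gene, was lower in stimulated cKO than in stimulated WT cells (-0.47, adjusted p = 0.0103), as in 16 of the 20 alternatives (-0.77 to -0.40).

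Between the genotypes, 2 of the 12 ERK output genes were called ex vivo and 1 after stimulation. Ex vivo, Ier3, an immediate-early gene, was higher in cKO (1.48, SE 0.27, adjusted p = 0.0113) at 7.28 against 1.98 scaled TPM, and Jun was lower (-1.28, SE 0.22, adjusted p = 0.00696). Ier3 passed the 5 TPM filter only through cKO groups, being 3.39 in stimulated WT, so the filter admitted it by the genotype then called higher. With a filter at 1 TPM or none both calls were lost, and Jun's also on TPM as deposited. Over the 20 alternatives Ier3 ran from 0.82 to 1.84 and Jun from -1.52 to -1.04. After stimulation Ier3 was the only gene of the 12 called (1.07, adjusted p = 0.0415). That call was made in only 7 of the 20 alternative fits, with values from 0.62 to 1.34, and was lost with either filter, with a pseudocount of 0.1, on TPM as deposited and in 9 of the 12 fits that each left out 1 library. Jun measured 441, 481 and 757 in WT ex vivo and 185, 194 and 310 in cKO ex vivo libraries, and 31.1, 31.1 and 29.1 against 47.8, 48.0 and 44.9 after stimulation, so its fall was shallower in cKO (interaction 1.89, SE 0.30, adjusted p = 0.0172). The signs of the interactions of Dusp14, Map2k3 and Jun held in all 20 alternative fits, in which they were called 18, 17 and 13 times. Over all 7 lists, 7 of 51 genes were called between the genotypes ex vivo and 4 after stimulation, beside 5.29% and 6.93% of all tested genes. In the stimulation comparisons 29 of 51 were called in WT and 27 in cKO, beside 32.0% and 43.8%, and 3 were called for the interaction, beside 1.10%. With 1 library left out, 4 to 10 were called ex vivo (4 without WT ex vivo 3) and 1 to 7 after stimulation (1 without WT stimulated 2).

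Within groups, the members did not vary as 1 block. WT ex vivo 1 and cKO ex vivo 1 held the highest values of their groups for Dusp4, Dusp5, Dusp10 and Spry1, whereas WT ex vivo 3 and cKO ex vivo 3 held the highest for Dusp1 and Dusp6. Across the 12 libraries, deviations from the group means correlated at r = 0.94 between Dusp4 and Dusp10, 0.88 between Dusp5 and Dusp10 and 0.81 between Dusp1 and Dusp6, but at -0.10 between Dusp6 and Dusp10 and -0.07 between Dusp1 and Dusp5. These are descriptions over 12 libraries that share a scaling factor for all genes. Over the 15 pairs of Dusp genes, the plain correlation of log2 levels ran from 0.60 to 0.94 with a median of 0.82, and the median for deviations from group means was 0.34.

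**Figure D5:**
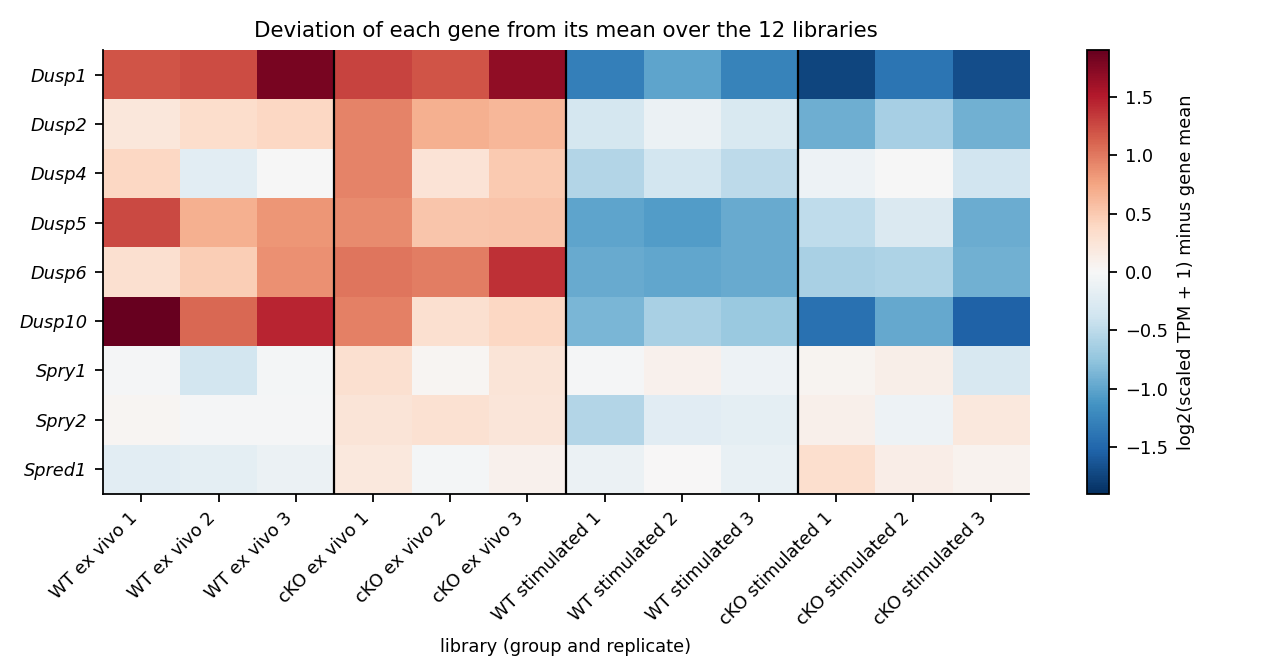
Log2(scaled TPM + 1) of each of the 9 genes (rows) minus its mean over the 12 libraries (columns, ex vivo libraries first and WT before cKO in each state). Red is above and blue below the gene's mean; the 6 ex vivo libraries are red and the 6 stimulated libraries blue for Dusp1, Dusp2, Dusp5, Dusp6 and Dusp10, and pale for Spry1, Spry2 and Spred1.

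The gene most like each member over the 12 libraries, by Pearson's r of log2 levels among all tested genes, was Tob1 for Dusp1 (r = 0.996), Tgif1 for Dusp2 (0.985), Gna13 for Dusp4 (0.987) and Mllt6 for Dusp5 (0.989). For Dusp6 it was Casp4 (0.994), for Dusp10 Glul (0.993), for Spry1 Kpna3 (0.945) and for Spred1 Gm16675 (0.923). No member was the closest match of another.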

How the data were processed

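RNA-seq libraries were made by the authors from rRNA-depleted RNA with a directional kit, and read as 51 bp paired ends. Reads were aligned with STAR 2.6.0c to mm9 and counted per gene with htseq-count 0.6.1 in the stranded mode against Ensembl release 67, with rRNA genes removed. The authors deposited TPM, a normalised signal that sums to 1000000 in each library, and log2 TPM, a log2 value from which whole reads could be recovered for 99.9977% of values (within 0.01; 10 values were not whole). A further deposited table of the authors' own comparisons, with fold changes and test results, was not used.

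The 13318 genes that reached 5 TPM as the mean of some group were scaled by trimmed means of M-values (30% of M and 5% of A trimmed), tested as log2(scaled TPM + 1) in limma 3.58.1 (R 4.3.3) with a mean-variance trend and 4 group terms on all 12 libraries, two-sided, with Benjamini-Hochberg adjustment over all tested genes at 0.05. TPM are not counts, so no count model was used on the deposited values. A fold change on this scale understates the change of low genes. Plotting used matplotlib 3.10.9. Intervals are 95% intervals of the fit. The 20 alternatives were a filter at 1 TPM, no filter, pseudocounts of 0.1 and 5, TPM as deposited, median-of-ratios scaling, recovered reads as log2 CPM, a replicate block and the omission of each library.

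The 9 members and all gene lists were chosen with earlier results of these data known. All members were described, and of each other list the called gene with the largest change in each comparison was named, with some others chosen after their values were seen. Spry3 had no match in the table. Replicates were individual mice. Gene positions are those of the GENCODE vM1 annotation on NCBIM37, in which no exon of a member overlapped another gene. Protein sequences were not used here.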

Additional observations from a re-analysis of the deposited data

Results flagged for a closer look

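Dusp2 was the 1 member whose difference between ex vivo and stimulated cells was itself different in the 2 genotypes by a test of that difference. The interaction was -1.01 on the log2 scale (limma, adjusted p = 0.0168, n = 3 libraries a group): Dusp2 was 1.48-fold lower after stimulation in WT and 3.02-fold lower in cKO. All 3 cKO libraries lay above all WT libraries ex vivo and below them after stimulation. Groups of 3 libraries were not examined for single outlying values.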

How the results depend on the processing

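The direction of all 6 Dusp genes in both stimulation comparisons held in all 20 alternatives. The genotype calls did not. Of the members, 1 was called ex vivo (Dusp10) in the reported fit, 0 with a filter at 1 TPM, with no filter or on TPM as deposited, and 3 on recovered reads, where Dusp2 and Dusp6 joined it (adjusted p 0.0158 and 0.0112); leaving out 1 library gave 0 to 2. After stimulation (1, Dusp2) and for the interaction (1, Dusp2), 0 were called with a filter at 1 TPM or no filter, and 0 to 1 without 1 library. For stimulation, 4 to 6 members were called in WT and 5 to 7 in cKO over all 20 alternatives, and 5 to 6 in each with 1 library left out. The 4 in WT came with a filter at 1 TPM, with no filter and on TPM as deposited, where Dusp2 was lost. Replicate numbers were not taken to pair the libraries, since deviations of same-numbered libraries correlated at -0.208 to 0.257 and in no pair of groups did all 3 exceed 0.1. Between WT and cKO ex vivo, however, the same-numbered correlations (0.078 to 0.257) all lay above the others (-0.182 to 0.063), a hint from the data and not from the design. WT ex vivo 3, from a female (Xist 191 scaled TPM), came from a different mouse than any WT stimulated library (Xist 0.748 to 0.866). The labels do not say whether other ex vivo and stimulated libraries shared mice. With a replicate block, 0 members were called ex vivo (Dusp10, adjusted p 0.0659). The Rasa2 call ex vivo and the Dab2ip call after stimulation were lost, as were those of Grb2 and Rasa2 for stimulation in WT and Egr1 for stimulation in cKO. Over all genes, the block gave 516, 630, 3944, 5458 and 65 calls against 704, 923, 4262, 5835 and 147. These counts are for genotype ex vivo, genotype after stimulation, stimulation in WT, stimulation in cKO and interaction.

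Leaving out 1 library gave, for the same 5 comparisons over all genes, 325 to 740 (lowest without cKO ex vivo 3), 398 to 1057 (without WT stimulated 2), 3256 to 4387, 4098 to 5991 and 50 to 203 (without cKO ex vivo 3). Of the pathway genes, 0 to 11, 0 to 10, 14 to 31, 24 to 32 and 0 to 3 were called over the 20 alternatives, against 7, 4, 29, 27 and 3 of 51 in the reported fit. Each alternative counts the listed genes that it tested, which need not be the same 51.

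With a filter at 1 TPM the 5 counts over all genes were 57, 52, 1731, 5927 and 0 (unadjusted p under 0.05 for 2468), and the median of the genes above 5 TPM moved to 0.00, -0.31, -0.22, -0.52 and -0.32. On TPM as deposited it moved to 0.21, -0.30, 0.18, -0.31 and -0.52, and calls split 260 higher to 13 lower, 69 to 237, 1175 to 768, 558 to 4116 and 6 to 61, against 482 to 222, 439 to 484, 1688 to 2574, 2305 to 3530 and 60 to 87.

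Sign changes among the members befell differences that had not passed the test, while of the called pathway differences that of Nf1 for stimulation in cKO changed sign (0.45, lowest -0.055). On TPM as deposited, Dusp1 ex vivo became 0.21, Dusp6 after stimulation -0.017, Dusp10 for the interaction -0.17, and Spred1 -0.44 for the interaction and -0.19 for stimulation in cKO. With a filter at 1 TPM and with none, respectively, values were -0.029 and -0.036 for Dusp6 and -0.011 and -0.016 for Spred1 after stimulation, -0.12 and -0.13 for Spry1 and -0.13 and -0.14 for Spred1 for stimulation in WT, and for Spred1 -0.26 and -0.25 for the interaction and -0.39 and -0.39 for stimulation in cKO. Dusp4 after stimulation reached -0.00065 with no filter. Without 1 library, Dusp1 ex vivo ranged from -0.18 to 0.17, Spry1 after stimulation from -0.14 to 0.13 and Spred1 for the interaction from -0.060 to 0.10. The cause of these changes was not tested. Depth limits Spry2 (34 to 125 reads a library).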
